A study of Mus musculus with 2 samples.

Results

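The genes described are 10 that encode enzymes and a chaperone of collagen maturation: Lox, Loxl1, Loxl2, P4ha1, P4ha2, P4hb, Plod1, Plod2, Plod3 and Serpinh1. They were found as the non-control probes that carry one of these symbols in the scanner files of both arrays, which gave 17 probes among 55680 and all 10 genes among 35018 gene names. The data are 1 array of skeletal muscle from a control mouse group and 1 array of skeletal muscle from a group with the colon 26 (C26) carcinoma, used in mice to study cachexia, a wasting of muscle in cancer. Both samples came from male CD2F1/Slc mice aged 11 weeks. The control received PBS, and the C26 sample received 1000000 C26 cells under the skin of the flank in 100 µL of PBS. The sources used here do not name the muscle, the time between implantation and sampling, or any pooling of mice. With 1 array a group there are no replicates, so no test was run, and every value describes this pair of arrays. All 15 skeletal muscle markers, among them Ckm, Acta1 and Myh4 (named as familiar muscle genes, after their values were seen), were well above background on both arrays. Their median log2 ratio was 0.05, a sign that turned in 2 of 9 alternative ways of processing.

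Collagen is made as single chains in the endoplasmic reticulum, where prolyl 4-hydroxylases modify prolines so that the triple helix is stable, and lysyl hydroxylases modify lysines that later carry crosslinks and sugars. The chaperone HSP47, encoded by Serpinh1, binds the folded helix and accompanies it out of the endoplasmic reticulum. Outside the cell, copper-dependent lysyl oxidases convert lysines of collagen and elastin to aldehydes, which form the crosslinks that stiffen the matrix. In muscle, most collagen is made by fibroblasts and other interstitial cells.

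The 10 genes differed among themselves. Loxl2 and Loxl1 were 2.77-fold and 2.19-fold lower in the C26 array, and Serpinh1 was 1.62-fold lower. The other 7 genes, Lox, all hydroxylase subunits and all lysyl hydroxylases, lay within 1.5-fold, at log2 ratios from -0.25 to 0.38. The value of a gene is that of its brightest probe, and the log2 ratio is the C26 value minus the control value after each array's 75th percentile was subtracted. Of the 10 genes, 2 were at least 2-fold lower, and 1.16% of the 19767 measured genes passed that mark. At 1.5-fold, 3 of the 10 were lower against 4.82% of measured genes. None of the 10 was at least 1.5-fold higher, against 4.36% of measured genes, or 2-fold higher, against 1.24%. Ratios were below 0 for 6 of the 10 genes and above 0 for 4, against 43.6% and 56.4% of measured genes. The median over the 10 genes was -0.11, and over all measured genes it was 0.04.

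**Figure D1:**
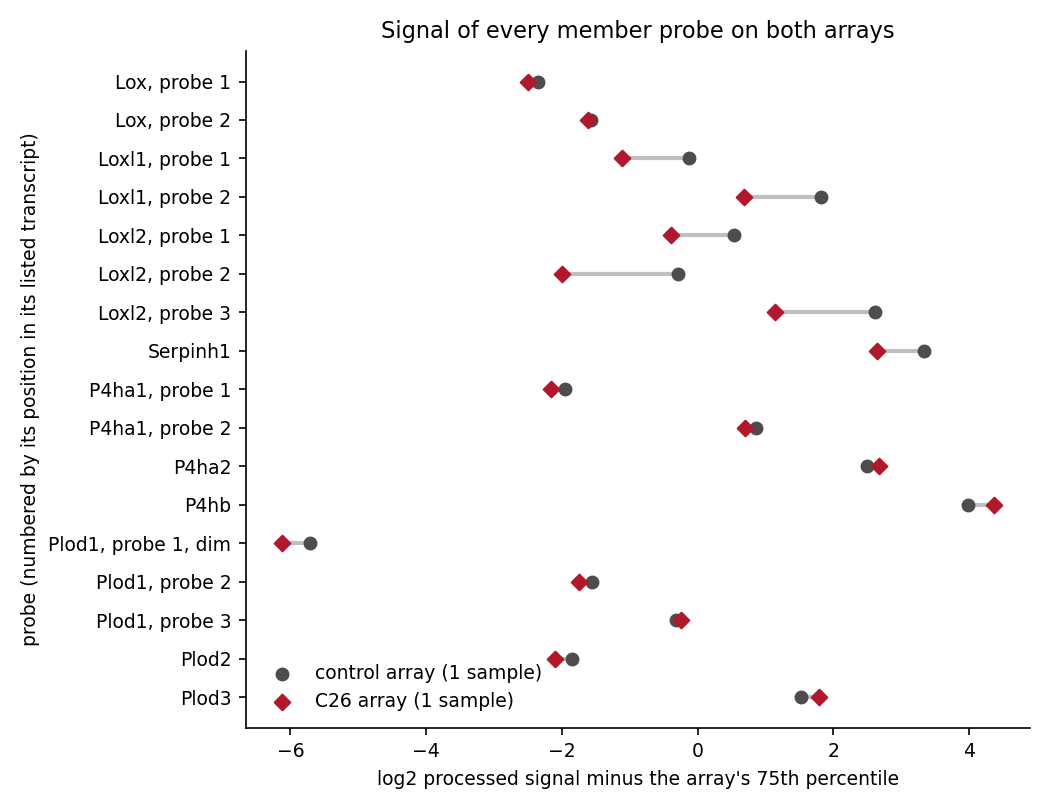
Signal of the 17 member probes, as log2 processed signal minus the array's 75th percentile (horizontal axis), on the control array (grey circles) and the C26 array (red diamonds), 1 sample each; levels can be compared within a probe, not between probes. The probes of Loxl1, Loxl2 and Serpinh1 have the widest gaps among the probes well above background, and the dim Plod1 probe lies far below the rest.

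Loxl1 and Loxl2 were each read by several probes, and those whose sequence can be read through in at least 1 frame are printed to show what was measured along the transcript. They include the brightest Loxl1 probe but not the brightest Loxl2 probe, on which the Loxl2 gene value rests and which has a stop in every frame. Each is a probe of 60 bases from the scanner files, on mm9, and capitals mark the longest run of bases that it shares with a probe for another of the 10 genes. That run was at most 9 bases for any of the 17 probes. The Loxl1 probes lie on the minus strand at chr9:58138570-58138629 and chr9:58145451-58145510, and start at bases 2075 and 1553 of the listed transcript. The Loxl2 probes lie on the plus strand at chr14:70090017-70090076 and chr14:70092141-70092200, and start at bases 2212 and 2293.
Loxl1, base 1553: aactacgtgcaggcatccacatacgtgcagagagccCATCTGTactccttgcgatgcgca
Loxl1, base 2075: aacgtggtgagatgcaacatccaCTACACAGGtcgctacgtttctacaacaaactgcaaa
Loxl2, base 2212: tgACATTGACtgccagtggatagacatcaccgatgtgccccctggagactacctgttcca
Loxl2, base 2293: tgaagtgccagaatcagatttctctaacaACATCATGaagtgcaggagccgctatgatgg
The 9 capitals of the second Loxl1 probe occur in a Lox probe, which is the one shared run between lysyl oxidases among those marked here.

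Loxl2, a lysyl oxidase that acts on type IV collagen among others, was the lowest of the 10 genes. Its brightest probe, at bases 4792 onward of the transcript (chromosome 14, 70095254 to 70095313), had a processed signal of 1598 in the control and 548 in C26. The log2 ratio was -1.47 with an error of 0.20. This error is the scanner software's own estimate for the spot, and says nothing of the spread between animals. For the bright member probes it was close to 10.0% of the signal on each array, so their errors were nearly constant at 0.20. The probe at base 2293 read 215 and 62.4, a log2 ratio of -1.71 (error 0.22). The probe at base 2212 read 381 and 190.2, a log2 ratio of -0.93 (error 0.21). All 3 probes were therefore lower in the C26 array, and 2 of them passed 2-fold. The span of 0.78 between them was larger than the error of a probe, so the size of the Loxl2 difference depended on the probe.

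Loxl1, the family member known for its role in elastic fibre upkeep, gave similar values with both probes. The brighter one, at base 2075, had a processed signal of 919 in the control and 399 in C26, a log2 ratio of -1.13 (error 0.20). The probe at base 1553 read 239.7 and 114.9, a log2 ratio of -0.99 (error 0.21), just short of 2-fold. The probes differed by 0.14, which is less than the error of one of them. Under a normexp correction of the background, whose offset pulls the ratios of dim probes toward 1, the brighter probe stood at -0.998 and Loxl1 no longer counted as 2-fold lower.

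Lox, the founding lysyl oxidase, did not share these ratios. Its brightest probe had a processed signal of 88.1 in the control and 81.1 in C26, a log2 ratio of -0.05 (error 0.22). The other read 51.4 and 44.0, a log2 ratio of -0.15 (error 0.25). Both differences were smaller than their errors. Both Lox probes were dim beside the arrays' 75th percentiles of 262 and 249, so a small difference in Lox was not detectable here.

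The remaining family members, which belong to a list of 30 other collagen-processing genes and are named here after their values were seen, were lower as well. Loxl4 was at 81.5 and 30.4 on the control and C26 arrays, a log2 ratio of -1.35 (error 0.26), and Loxl3 at 104.8 and 63.1, a log2 ratio of -0.66 (error 0.22). Each has 1 dim probe that was measured, and under normexp correction they stood at -0.59 and -0.42. Among the 5 lysyl oxidase genes, 4 were thus at least 1.5-fold lower and Lox alone was not; with normexp correction Loxl3 was not either.

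Serpinh1, the collagen chaperone, was read by 1 bright probe on chromosome 7 (106493971 to 106494030, mm9, minus strand). Its processed signal was 2655 in the control and 1557 in C26, a log2 ratio of -0.70 (error 0.20). Only 3.19% of measured genes had a lower ratio. Across the other scalings and background corrections the value ran from -0.77 to -0.72.

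The prolyl 4-hydroxylase is a tetramer of catalytic alpha subunits, from P4ha1 or P4ha2, and beta subunits from P4hb, which is also protein disulfide isomerase and serves other proteins. P4ha1 had a processed signal of 477 in the control and 402 in C26 with its brightest probe, a log2 ratio of -0.17 (error 0.20). Its dimmer probe read 67.8 and 55.7, a log2 ratio of -0.21 (error 0.24). The P4ha1 probes differed by 0.04. P4ha2 had 1482 and 1590.5, a log2 ratio of 0.17 (error 0.20). For neither alpha subunit did a difference exceed the error of the probe. P4hb was the highest of the 10 genes, at 4153 and 5145, a log2 ratio of 0.38 (error 0.20), or 1.30-fold higher in the C26 array. That is under 2 times its error, and 88.95% of measured genes had a lower ratio. P4ha3, a further alpha subunit, is named after its value was seen and had a log2 ratio of 0.0042 (error 0.23), below 0 under some other scalings.

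Of those among the 10 genes that act in the endoplasmic reticulum, Serpinh1 and P4hb had the lowest and highest ratios. The 250 bases before their start sites are printed to show where common promoter motifs lie. The sequences are RefSeq's on GRCm38.p6, both on the minus strand, at chr7:99353240-99353489 and chr11:120573254-120573503. Of the 10 genes, 6 had an entry in that table, and the 4 without one were Lox, Loxl1, Loxl2 and Plod2. Capitals mark the GC box GGGCGG and the CCAAT box CCAAT, searched on both strands.
Serpinh1: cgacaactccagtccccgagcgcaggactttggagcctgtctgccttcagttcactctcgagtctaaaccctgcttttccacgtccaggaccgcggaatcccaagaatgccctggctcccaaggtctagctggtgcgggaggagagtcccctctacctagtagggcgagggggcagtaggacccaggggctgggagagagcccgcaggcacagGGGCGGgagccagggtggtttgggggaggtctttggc
P4hb: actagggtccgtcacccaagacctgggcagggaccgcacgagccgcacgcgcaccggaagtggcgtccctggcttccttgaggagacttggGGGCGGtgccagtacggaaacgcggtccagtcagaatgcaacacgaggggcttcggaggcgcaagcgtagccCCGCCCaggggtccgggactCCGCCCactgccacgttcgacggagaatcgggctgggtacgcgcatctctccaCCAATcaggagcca
Serpinh1 held 1 GC box and P4hb held 3, and 32.7% of 32851 promoters of this length held at least 1. P4hb held 1 CCAAT box, 14 bases before the start, and Serpinh1 held none, against 33.9% of promoters. The core ACGTG, which is part of the element bound by hypoxia-inducible factors, was found once in each, and in 16.6% of promoters. In both genes it overlaps a match of CCACG, which 28.3% of promoters held. P4ha1, P4ha2 and Plod3 also held 1 match of ACGTG each, and Plod1 held none. G and C made up 55.6% to 70.0% of the bases of the 6 promoters, and the shares over all promoters were not matched for this. The matches describe the letters alone.

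The lysyl hydroxylases Plod1, Plod2 and Plod3 modify lysines of collagen; PLOD2 is known for the telopeptide lysines that set the type of crosslink, and PLOD3 also adds sugars. Plod1 had a processed signal of 211 in the control and 209.7 in C26 with its brightest probe, a log2 ratio of 0.06 (error 0.21). That probe maps over 1421 bases of chromosome 4 (147290037 to 147291457, mm9), so its 60 bases span a splice junction. A second Plod1 probe read 89.0 and 74.2, a log2 ratio of -0.19 (error 0.22). Neither ratio exceeded its error, and the sign of Plod1 depended on the probe. The third Plod1 probe, listed under another transcript, was the 1 probe of the 17 that fell short of the well-above-background flag on both arrays, with 4.99 and 3.57.

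Plod2 had a processed signal of 72.4 in the control and 58.0 in C26, a log2 ratio of -0.25 (error 0.24). Plod3 had 752 and 858, a log2 ratio of 0.26 (error 0.20), and 79.4% of measured genes had a lower ratio. Both ratios were slightly larger than their errors and had opposite signs. Of the 16 probes well above background, 3 were at least 2-fold lower and 6 at least 1.5-fold lower, against 1.14% and 4.86% of all such probes. None was at least 1.5-fold higher, against 4.48%, and none 2-fold higher, against 1.16%. The same 6 were lower by more than 2 times their error, all of them probes of Loxl1, Loxl2 and Serpinh1. No member probe was higher by that much. Among all 26781 probes well above background on both arrays, 7.39% were lower and 8.17% higher by more than 2 times their error.

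**Figure D2:**
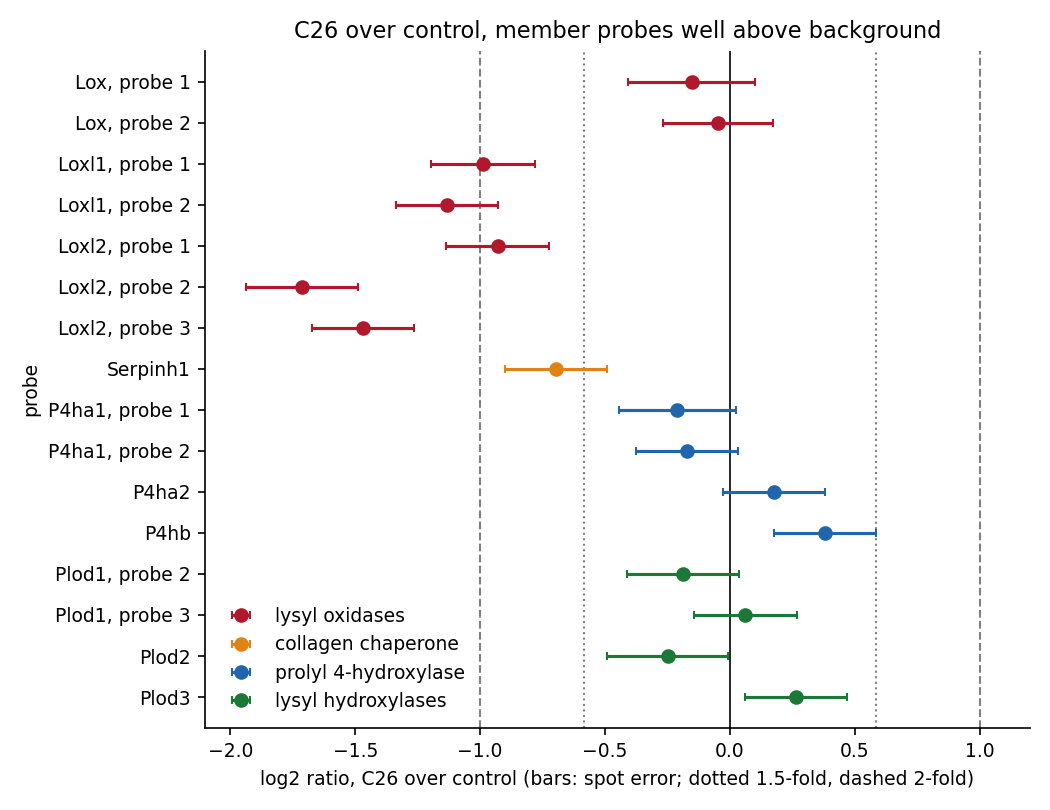
Log2 ratios, C26 over control, of the 16 member probes well above background, coloured by the role of the gene, with the spot error as bars and dotted and dashed lines at 1.5-fold and 2-fold. The probes of Loxl1, Loxl2 and Serpinh1 lie below the lower 1.5-fold line, from -1.71 to -0.70, and all other probes lie between -0.25 and 0.38.

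Several scalings and background corrections were compared for each gene. Loxl2 lay between -1.53 and -1.37 in all of them, and P4hb between 0.29 and 0.38. Plod1 was the 1 gene of the 10 whose sign turned, at -0.06 with the mean over its probes.

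**Figure D3:**
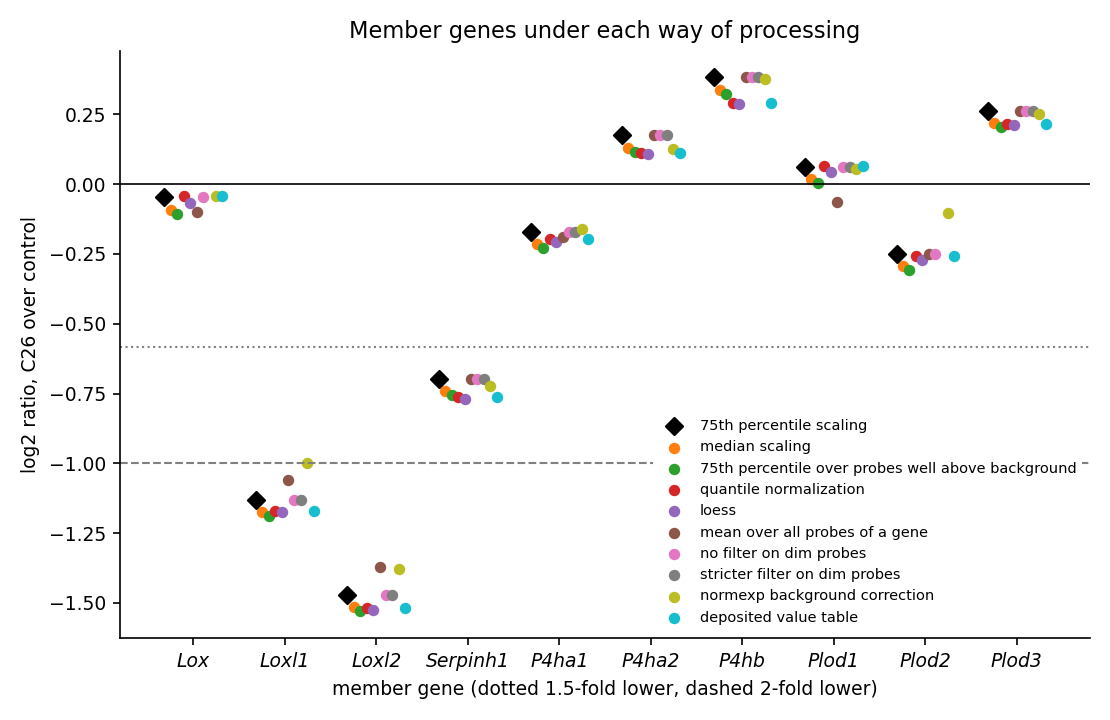
Log2 ratio, C26 over control, of each member gene under the main scaling (black diamonds) and 9 alternatives (coloured circles); Lox and Plod2 are too dim for the stricter filter. Loxl1, Loxl2 and Serpinh1 lie at or below -0.70 under every setting, and the other genes at or above -0.31.

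The genes that make the substrate were lower to a greater extent than most of the enzymes. Of 11 fibrillar collagen chains, 9 were measured. Of these, 8 passed 2-fold on the lower side and the other, Col11a2, was 1.67-fold lower. The median log2 ratio of the 9 was -1.45, with a range from -1.996 to -0.74. Col2a1 was not well above background on the C26 array, nor Col27a1 on the control array. Without the filter on dim probes, 9 of the 11 passed 2-fold on the lower side and 1 was above 0. Col1a1, the main chain of type I collagen, had processed signals of 31433 (control) and 8519 (C26), a log2 ratio of -1.81, and its partner Col1a2 stood at -1.45. Col3a1, the chain of type III collagen, stood at -1.996. Under the main scaling, 8 of the 10 collagen-processing genes described here had ratios above that of Col11a2, the highest of the 9 measured chains. Of 33 other collagen chains, 21 were measured, 11 were at least 1.5-fold lower and 4 at least 2-fold lower, with a median of -0.60. The lowest were Col26a1 and Col6a2, at -2.19 and -1.54, and the highest Col4a6 at 0.22. Col26a1 is dim in C26 and stood at -1.22 with normexp correction, where Col6a2 was the lowest at -1.47. With normexp correction 5 of the 9 fibrillar chains passed 2-fold and 7 passed 1.5-fold; the dim chains Col5a2 and Col11a2 stood there at -0.71 and -0.47, and Col24a1 and Col11a1, named after their values were seen, at -0.52 and -0.65. Serpinh1 was then below the highest chain. It was also below Col11a2 with quantile normalization (-0.76 against -0.73), loess (-0.77 against -0.76) and the deposited value table (-0.76 against -0.73). How the enzymes' ratios differ from those of the chains has no test here, since each gene was measured once a group.

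By their median, though not gene by gene, further genes of collagen processing lay between the chains and the 10 genes described above. Of the 28 measured, 9 were at least 1.5-fold lower, 2 of these by 2-fold or more, and 0 were 1.5-fold higher; the median was -0.42. The lowest was Ctsk at -2.13, which encodes a lysosomal protease that degrades collagen rather than building it, followed by Loxl4, which does not pass 2-fold under normexp correction as given above. The count at 1.5-fold on the lower side ran from 6 to 12 over the alternatives. The highest was Tgm2, a transglutaminase that crosslinks proteins by another chemistry, at 0.58 (error 0.20, second probe 0.60). Tgm2 passed 1.5-fold with normexp correction, at 0.60, and with the mean over its probes, at 0.59. Colgalt1, which adds galactose to hydroxylysine, was next at 0.28 (error 0.20).

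Elastic fibre genes, whose products include the other substrates of lysyl oxidases, were uneven. Of 16 measured, 4 passed 2-fold on the lower side, 0 passed 1.5-fold on the higher side, and the median was -0.29. With the mean over a gene's probes 3 passed 2-fold, as did 3 of 13 with the stricter filter. Fbn1 (fibrillin-1) and Mfap4 stood at -1.81 and -1.55, and these 2 alone passed 2-fold with normexp correction. Eln, the elastin gene, had processed signals of 136 (control) and 159.9 (C26), a log2 ratio of 0.31 (error 0.21), while Loxl1 was lower by the values above. The highest were Emilin1 at 0.58 (error 0.30; 0.27 with normexp correction) and Fbln1 at 0.36.

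A list of general chaperones of the endoplasmic reticulum was close to the median of all genes. It also holds Ppia, whose product is cytosolic, and Xbp1, a transcription factor. Of 25 measured, 1 was at least 1.5-fold lower, Sdf2l1 at -0.79, and 1 at least 1.5-fold higher, Hyou1 at 0.66, which is dim and stood at 0.23 under normexp correction. Their median was 0.03, a sign that turned in 5 of 9 alternatives. Hspa5 (BiP) and Hsp90b1, the abundant chaperones of this compartment, stood at -0.025 and -0.04, and Serpinh1 at -0.70. P4ha1, P4ha2, Plod1, Plod2, Lox and Loxl2 are known targets of hypoxia-inducible factors, and other targets of these factors gave a mixed picture. Of 21 measured, Ddit4 and Egln3 were at least 2-fold higher, at 1.81 and 1.02, and Pfkfb3 was at least 2-fold lower at -1.47, with a second probe at -0.21 and a mean over its probes of -0.84. Egln3 passed 2-fold by a narrow margin and stood between 0.89 and 0.98 in 7 of the 9 alternatives, and its second probe gave 0.92. The median of these targets was 0.025, a sign that turned in 4 of 9 alternatives, and Vegfa stood at 0.14 with a second probe at 0.77.

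**Figure D4:**
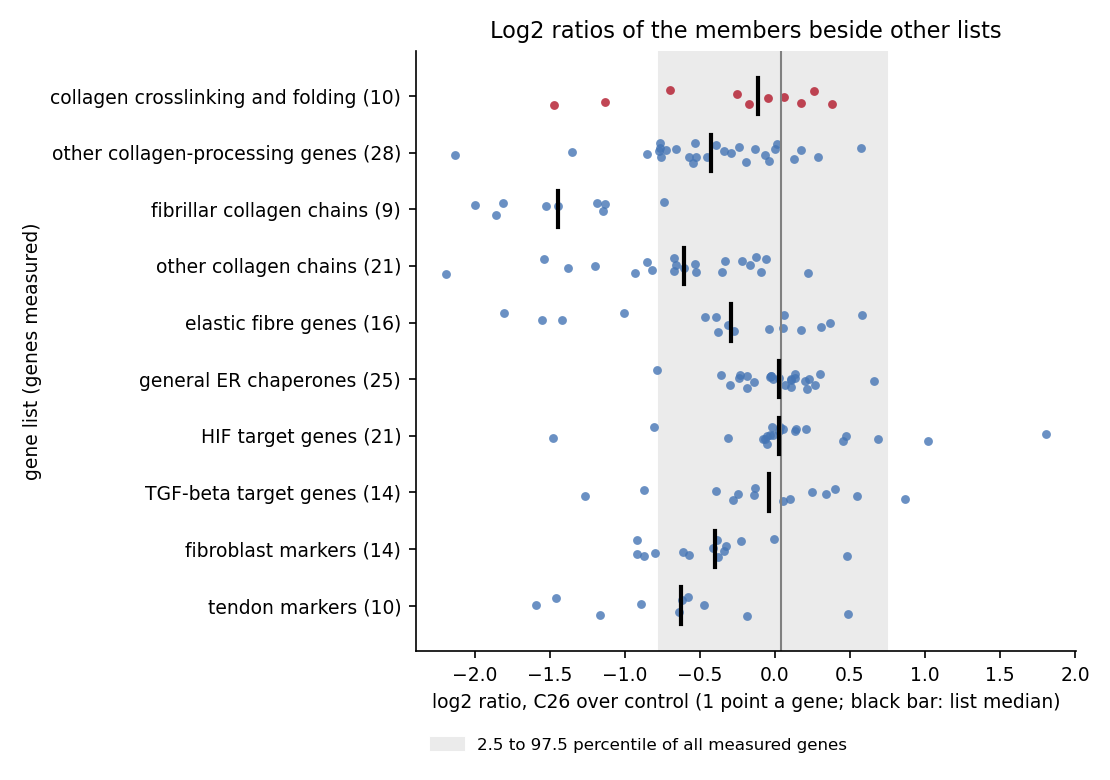
Log2 ratios, C26 over control, of the 10 collagen crosslinking and folding genes (red) and of genes in other lists (blue), 1 point a measured gene, with black bars at list medians, a grey line at the median of all measured genes and a grey band over the central range of their ratios, -0.77 to 0.75. The 9 fibrillar collagen chains lie between -1.996 and -0.74, while 7 of the 10 red points lie between -0.25 and 0.38.

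Markers of the cells that make collagen were also lower in the C26 array. Of 15 fibroblast markers, 14 were measured, 13 were below 0, 5 were at least 1.5-fold lower, none by 2-fold; their median log2 ratio was -0.40, with Cd248 and Dpt lowest at -0.92 each. Tcf21 was not well above background on either array, and Ly6a was the highest at 0.48. The summed processed signal of the measured fibroblast markers, before scaling, was 342802 in the control and 282558 in C26. Medag gave the largest part of both sums, 142136 and 134678.5, at a log2 ratio of -0.0051, so the sums mostly reflect few genes. All 10 tendon markers were measured, 6 were at least 1.5-fold lower and 3 of them by 2-fold, with a median of -0.63 and a summed signal of 39337 and 24959; with normexp correction 5 and 2 passed those marks. Kera and Tnmd stood at -1.59 and -1.46, Scx at -0.18 and Egr1 at 0.49. In a bulk sample, fewer cells of a type and less RNA per cell cannot be told apart, and the part of these markers in the ratios of Loxl1, Loxl2 and Serpinh1 was not tested.

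Markers of other cells varied by cell type, and most macrophage markers were lower as well. All 12 endothelial markers had ratios above 0, 3 of them at least 1.5-fold higher (2 to 4 over the alternatives), with a median of 0.38 and a summed signal of 31876 and 40448; Kdr, Emcn and Cdh5 were below 0 under at least 1 other scaling, and a second Kdr probe gave -0.63. Smooth muscle and pericyte markers had a median of 0.01 over 10 measured, and 1 was at least 1.5-fold lower, Cspg4 at -0.64 (-0.575 with normexp correction, short of that mark); their summed signal was 56953 and 63244. Of 12 macrophage markers, 10 were measured, with a median of -0.25 and a summed signal of 8569 and 6130. Of these, 9 were below 0 and 4 were at least 1.5-fold lower (3 with normexp correction). Cd68 and Ms4a7 were the 2 at least 2-fold lower, at -1.35 and -1.29 (Ms4a7 at -0.89 with normexp correction, which leaves 1). Under the other scalings and in the deposited value table there were 3, with Lyz2 at -1.04 to -1.01 there against -0.98. Without the filter on dim probes, 3 of the 12 were above 0 and 1 was at least 1.5-fold higher. Adipocyte markers had a median of 0.31 over 9 measured and a summed signal of 51081 and 65404. Of 10 epithelial and carcinoma markers, 5 were measured with a median of 0.11 and a summed signal of 805 and 1007, and Epcam, Krt8, Krt20 and Vil1 were not well above background on either array.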

How the data were processed

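The members and the gene lists were chosen with earlier results of these data known. The labels give 1 control and 1 C26 sample of total RNA, labelled with Cy3 on a one-colour array. Per the file headers, the scanner values were made with Agilent Feature Extraction 10.7.1.1, while the submitters' processing notes list 9.5.1.1; the deposited values are linear intensities of spots, background-subtracted with spatial detrending and detrended within each array, with a surrogate value for the lowest spots (31.9% of non-control spots of the control array, 25.6% of the C26 array). Deposited flags, treated as other values, marked outlier spots, which were left out, and spots well above background, which were 50.4% and 53.8%. No spot was saturated. Log2 values had each array's 75th percentile over non-control probes subtracted. Genes were named by RefSeq accession or symbol (30816 of 55680 probes matched), and otherwise by the name in the file; a gene was measured if the well-above-background flag was set for its brightest probe on each array. Each member probe was 1 spot an array. As a check, 267 probes printed in at least 8 copies had a standard deviation between copies that gives 0.09 (log2) for a ratio of single spots, less than the software's error of about 0.21. The deposited value table, an intensity per probe whose making the sources used here do not state, lay within 0.01 (log2) of quantile-normalized signals for 99.9% of probes in each column.

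Genes named are all 10 members with every probe and, of each list, examples from the 2 highest and 2 lowest measured genes, with Col1a1, Col1a2, Col3a1, Eln, Hspa5, Hsp90b1 and Vegfa in every case. Loxl3, P4ha3, Cdh5, Ckm, Acta1, Myh4, Col24a1, Col11a1, Lyz2, Ppia and Xbp1 fall outside this rule, as do genes named as not well above background. All of these were chosen after their values were seen. The scaling and gene steps were tested on simulated data, made by adding known changes to the control array's values. That test left out the normexp correction and the deposited value table. As 9 alternatives, the ratios were recomputed with a normexp correction (offset of 50), quantile normalization, scaling to the median or to the 75th percentile of the well-detected probes, loess with a span of 0.3, the deposited value table, the mean over a gene's probes, no filter on dim probes, and a stricter filter that also asked for a processed signal of 100 on both arrays. The computations used R 4.3.3 (limma 3.58.1) and Python 3.11.15 (matplotlib 3.10.9, statsmodels 0.14.6, pandas 2.3.3, numpy 2.4.6).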

Additional observations from a re-analysis of the deposited data

How the results depend on the processing

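With 1 array a group, nothing here measures the spread between animals, and the dim probes of Lox, Plod2, Loxl3 and Loxl4 limit what could be seen of those genes. No paired analysis was possible because each group holds 1 sample. The count of member genes at least 2-fold lower was 2, and 1 with normexp correction, where Loxl1 stood at -0.998; it was 2 in the other 8 alternatives, and the count at 1.5-fold was 3 in all 9. The median of the 10 genes lay between -0.17 and -0.05. Of all genes, 229 were at least 2-fold lower and 246 higher, against 65 and 130 under the normexp correction, 1330 and 1587 without a filter, which counts 35018 genes as measured, and 90 and 158 with the stricter filter, which counts 14190. At 1.5-fold the counts were 953 and 861, against 409 and 434, 2876 and 3518, and 421 and 499. Why normexp gave fewer was not tested. The fibrillar collagen median was -1.67 over 6 genes with the stricter filter, and that of the epithelial markers 0.55 over 2 genes.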

Other observations

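Genes that supply the cofactors of these enzymes, which need vitamin C and iron for hydroxylation and copper for lysyl oxidation, were close to the median of all genes. Of 10 measured, 1 was at least 1.5-fold lower, Tfrc, the transferrin receptor, at -1.07 (error 0.07). That error is small because the probe was printed in several copies and the software's error was averaged over them. Other Tfrc probes stood at -0.94 and -0.21, and the mean over its probes was -0.74. The copper importer Slc31a1 stood at -0.14, and Gsto1 and Ftl1 were highest at 0.15 and 0.11, Ftl1 being below 0 under some other scalings. The list median was -0.02, a sign that turned in 2 of 9 alternatives.

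Targets and ligands of TGF-beta signalling, which induces many matrix genes, were divided. Of 14 measured, Postn, a matrix protein, was at least 2-fold lower at -1.26 (error 0.21) but at -0.94 with normexp correction, where no gene of the list passed 2-fold, and Fn1 (fibronectin) stood at -0.87. Smad7, an inhibitor that the pathway itself induces, was the 1 gene at least 1.5-fold higher, at 0.87 (error 0.21), followed by Skil at 0.54. The list median was -0.04, and it turned sign in 1 of 9 alternatives.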
